A study of Homo sapiens with 11 samples.

Results

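The messenger RNAs described here are those of the respiratory chain and ATP synthase, the protein machines of the inner mitochondrial membrane that oxidize NADH and succinate and make ATP. They were read in 769-P cells, an established human clear-cell renal carcinoma line, in 11 RNA sequencing libraries. Of these, 4 libraries came from cells given a control siRNA (siSCR), 3 from cells given a first siRNA against AKR1A1 (si1) and 4 from cells given a second one (si2). All cells carried the label wild-type and were taken 48 h after lipid transfection, so that the control cells were transfected as well. AKR1A1 encodes an aldehyde reductase that uses NADPH.

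Genes were selected by name and on their control level. Names were those of the NDUF, SDH, UQCR, CYC1, COX4 to COX8 and ATP5 families and of the 13 protein-coding genes of mitochondrial DNA, and 105 of 33080 genes in the deposited tables matched. A gene was kept when its mean normalized count over the 4 siSCR libraries was at least 10, which left 93 genes, 13 mitochondrial and 80 nuclear. A normalized count is the number of reads of a gene divided by the size factor of its library. Since the siSCR values chose the genes, their control levels are given as a description and not tested, and both contrasts against siSCR share those libraries. Just inside the limit stood ATP5L2 with a mean of 10.3, SDHD with 16.8 and ATP5F1EP2 with 24.1, and just outside stood NDUFB2-AS1 with 7.30 and UQCRHL with 3.26. By complex, the mitochondrial genes were 7 of complex I, 1 of complex III, 3 of complex IV and 2 of complex V. The nuclear ones were 36, 4, 9, 11 and 15 of complexes I to V. The other 5 match the name pattern but are not subunits: the pseudogene ATP5F1EP2, ATP5L2, ATP5S, ATP5SL, and COX7A2L, which helps to join complexes III and IV. Symbols are those of the deposited tables, in which mitochondrial genes lack the prefix MT- and ATP synthase genes have older names, such as ATP5G1 for ATP5MC1.

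Complex I (NADH dehydrogenase) and complex II (succinate dehydrogenase) pass electrons to ubiquinone, complex III passes them to cytochrome c, and complex IV (cytochrome c oxidase) passes them to oxygen. The proton gradient made by complexes I, III and IV drives complex V, the ATP synthase. Complex II is wholly nuclear, while the other complexes need subunits from both genomes. Mitochondrial DNA is transcribed from both strands as long precursors that are then cut into single RNAs, and nuclear subunit genes are transcribed one by one, many under factors such as NRF1, GABPA and YY1. Clear-cell renal carcinoma is known for few mitochondria and a low use of respiration.

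The siRNA target was lower in every library of both siRNA groups. AKR1A1 had normalized counts of 200.1 to 390.4 over the siSCR libraries, 23.6 to 81.7 with si1 and 32.1 to 56.6 with si2. Its log2 difference was -2.54 with si1 (SE 0.42, adjusted p = 0.0357) and -2.53 with si2 (SE 0.24, adjusted p = 0.00218) by limma, a linear model with moderated variances fitted over all genes. The si1 call was lost when any one library but siSCR 1 was left out, with differences of -2.10 to -2.98 and adjusted p of 0.0659 to 0.126. Those fits called only 0 to 4 of all genes tested, against 181 of 10517 with every library kept. Depth was 2108546 to 5939514 reads in genes per library. Of 8 renal markers, CA9 had no read and NDUFA4L2 had 1 read over all libraries. VIM had the highest mean of the 8, at 9224 with siSCR, 8300 with si1 and 9256 with si2. PAX8 had means of 882, 1019 and 759, and PAX2 of 80.6, 102 and 50.8. In the same order KRT18 had 779, 402 and 647, KRT8 had 531, 294 and 416, and CDH6 had 460, 576 and 693. Summed renal markers, mostly VIM, lay between 8907 and 13107 normalized counts in every library. Summed leukocyte markers lay at no more than 3.92, all 4 endothelial markers at 0, and summed fibroblast markers between 12.3 and 61.9. Library siSCR 1 stood apart from the other siSCR libraries in the genes described here, and its weight in the comparisons is given beside them. It did not stand apart in these genes alone. Of 10281 genes with a mean of at least 10, it was above those libraries for 35.9% and below them for 36.2%. Without it, limma calls over all genes went from 181 to 1399 with si1 and from 320 to 1496 with si2. Nothing in the labels ties a library to a culture of its own. The p-values therefore measure the spread between these libraries, which may be technical.

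Sequences of 4 nuclear promoters are shown because they carry the letters of the factors named above or belong to genes on which the comparisons below turn. RefSeq (GRCh38.p14) gave a window of 300 bases, 250 before and 50 after the start of transcription, for 63 of the 80 nuclear genes. The letters searched on both strands were GCGCANGCG for NRF1, CCGGAAGT for GABPA, AAGATGGC for YY1 and GGGCGG for SP1. NDUFB2 had the lowest p of the nuclear subunits with si1 against siSCR, and COX5A the lowest between the siRNAs. UQCR11 held NRF1 and GABPA letters, and ATP5O was the most abundant subunit gene with YY1 letters. Capitals mark any of the 4 motifs, in either orientation, and the strand is that of the gene.
NDUFB2, chr7:140696458-140696757, + strand: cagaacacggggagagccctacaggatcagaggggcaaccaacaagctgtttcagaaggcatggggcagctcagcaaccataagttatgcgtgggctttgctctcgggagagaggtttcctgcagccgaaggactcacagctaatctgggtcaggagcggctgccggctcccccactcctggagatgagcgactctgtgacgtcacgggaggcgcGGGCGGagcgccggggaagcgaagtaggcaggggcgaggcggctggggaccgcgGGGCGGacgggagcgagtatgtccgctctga
COX5A, chr15:74938024-74938323, - strand: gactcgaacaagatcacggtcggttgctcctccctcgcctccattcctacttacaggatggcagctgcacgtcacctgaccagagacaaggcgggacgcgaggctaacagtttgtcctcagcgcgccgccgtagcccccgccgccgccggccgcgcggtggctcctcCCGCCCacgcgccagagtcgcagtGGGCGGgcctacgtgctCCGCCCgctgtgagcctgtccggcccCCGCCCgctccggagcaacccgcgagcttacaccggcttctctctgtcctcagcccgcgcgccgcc
UQCR11, chr19:1605413-1605712, - strand: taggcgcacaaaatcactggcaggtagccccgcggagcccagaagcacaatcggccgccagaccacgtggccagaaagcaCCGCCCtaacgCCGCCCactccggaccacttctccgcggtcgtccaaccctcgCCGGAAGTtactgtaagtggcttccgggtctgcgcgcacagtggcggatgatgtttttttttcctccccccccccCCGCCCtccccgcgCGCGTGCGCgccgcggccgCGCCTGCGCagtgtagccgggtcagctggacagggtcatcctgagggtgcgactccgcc
ATP5O, chr21:33915755-33916054, - strand: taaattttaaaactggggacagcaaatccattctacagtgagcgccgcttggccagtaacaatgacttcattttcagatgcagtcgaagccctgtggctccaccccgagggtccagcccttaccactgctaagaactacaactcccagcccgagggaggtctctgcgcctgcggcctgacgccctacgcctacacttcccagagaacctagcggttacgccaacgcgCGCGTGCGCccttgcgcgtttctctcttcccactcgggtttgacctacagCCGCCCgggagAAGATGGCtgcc
The NDUFB2 window held 2 SP1 matches and the COX5A window 4, with no match to the other 3 motifs. In UQCR11 there were 2 NRF1 matches, 3 SP1 matches and 1 GABPA match, which began at position -117 counted from the start of transcription. In ATP5O, YY1 letters began at position 39, inside the transcript, and NRF1 letters at -23. No motif overlapped another in these 4 windows.

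NRF1 letters were in 20 of the 63 promoters (31.7%), against 8.05% of 27305 promoters of all genes. GABPA letters were in 9 (14.3%, against 4.44%), YY1 letters in 11 (17.5%, against 3.03%) and SP1 letters in 38 (60.3%, against 44.6%). At least 1 of NRF1, GABPA and YY1 was found in 32 of the 63 promoters (50.8%, against 14.1%). A match of letters is a description of the window and not evidence of binding.

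A second sequence is shown because the 2 mitochondrial genes of complex V overlap, so that some reads could belong to either. ATP8 and ATP6 are read from one RNA, in which the end of ATP8 is also the start of ATP6. In the GENCODE 29 annotation of GRCh38 the shared stretch is chrM:8527-8572, on the + strand, and its capitals are the start codon of ATP6 and the stop codon of ATP8.
ATP8 and ATP6 overlap: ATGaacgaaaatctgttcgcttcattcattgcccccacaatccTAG
These 46 bases were 22.2% of ATP8 and 6.75% of ATP6. ND4L and ND4 share 7 bases in the same way, which were 2.36% of ND4L. How the authors' counting treated reads in such a stretch was not given in the sources used here.

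Per kilobase of exon, mitochondrial genes stood far above nuclear ones in the control cells. Their siSCR mean per kilobase ranged from 855 normalized counts for ND6 to 61215 for ATP8, with a median of 16089 over the 13 genes. Nuclear genes ranged from 5.60 for ATP5S to 3231 for COX8A, with a median of 194 over the 80 genes. ND6 is the only one of the 13 read from the other strand of mitochondrial DNA. The strandedness of the libraries was not given, so reads of ND6 and reads of the strand opposite to it cannot be told apart. Among nuclear subunits, complex II had the lowest levels per kilobase, from 5.94 for SDHD, a membrane anchor, to 30.2 for SDHC, the other anchor. Medians per kilobase were 145 for complex I, 396 for complex III, 451 for complex IV and 317 for complex V.

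Isoforms that other tissues use were at or near 0. COX4I2, COX7A1 and COX7B2 had no read in any of the 11 libraries, COX6B2 had 3 reads in all, COX8C 2 and COX6A2 5. Their widely expressed counterparts were well covered. COX4I1 had a siSCR mean of 2857 ± 229 (SD, n = 4) normalized counts and COX6A1 one of 606 ± 39.4 (SD, n = 4). The means were 1111 ± 75.3 (SD, n = 4) for COX6B1, 719 ± 82.1 (SD, n = 4) for COX7A2 and 1638 ± 472 (SD, n = 4) for COX8A. NDUFA4L2, a paralog of NDUFA4 that clear-cell renal carcinoma often expresses, had 1 read in all 11 libraries, and NDUFA4 had 904 ± 21.0 (SD, n = 4). UQCRHL, a retrocopy of UQCRH, had 54 reads in all, against a siSCR mean of 1275 ± 151 (SD, n = 4) for UQCRH.

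The 13 mitochondrial genes shared their highest libraries, since siSCR 1 and si1 1 were the highest 2 for each of the 13. In other libraries they did not all move together. In si2 3, COX2 (26792) and COX3 (26133) had their highest si2 values, while ND2 (7760) and ATP8 (5062) had their lowest of all 11 libraries. In si1 2, ND4L (1995) and ND6 (158) had their lowest of all 11. In siSCR 1 all 13 genes were above the other 3 siSCR libraries, by 1.22-fold for ND4L to 3.99-fold for ATP6 over their mean. In si1 1 all 13 were above the mean of the other 2 si1 libraries, by 1.45-fold for ND2 to 2.35-fold for ND6. Of the 13 genes, 9 had their highest value of all 11 libraries in siSCR 1 and the other 4 in si1 1, while 8 had their lowest in siSCR 3.

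COX3, a core subunit of complex IV, had normalized counts of 84406, 21729, 19383 and 23239 in siSCR 1 to 4, 81456, 47121 and 55611 in si1 1 to 3 and 21973, 23311, 26133 and 22353 in si2 1 to 4. The si2 libraries lay close together and below all 3 si1 libraries, and siSCR 1 lay above every other library. ATP6, subunit a of the ATP synthase and part of its proton channel, had 40799, 11951, 7625 and 11083 in siSCR, 45679, 23707 and 22777 in si1 and 16599, 11538, 12547 and 11862 in si2. COX2, which takes electrons from cytochrome c, had 43285, 14519, 15382 and 13831 in siSCR, 51222, 31590.4 and 34251 in si1 and 13925, 13425, 26792 and 16473 in si2. For COX2 the si2 group held 1 high library, si2 3, which still lay below the lowest si1 library. CYTB, the cytochrome b of complex III, had 27092, 7706, 5697 and 7335 in siSCR, 23828, 14257 and 15026 in si1 and 11401, 9492, 7437 and 8942 in si2. Here too the si2 libraries were all below the si1 libraries.

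Complex I genes were also highest in siSCR 1 and si1 1, with differences of other sizes. ND4, a proton-pumping subunit, had 55293, 20821, 14459.6 and 19271 in siSCR, 49837, 24115 and 34983 in si1 and 25798, 25393, 19039 and 23509 in si2. ND3 had 35861, 13091, 10067 and 12245 in siSCR, 37837, 17551 and 20493 in si1 and 21228, 16376, 18460.3 and 18212 in si2. All 4 si2 libraries of ND3 were above siSCR 2 to 4 and below siSCR 1. ND4L differed least, by 2.28-fold between its highest and lowest library, with 4149.7, 3801, 2548 and 3846 in siSCR, 4552, 1995 and 3736 in si1 and 2832, 3407, 3052 and 3946 in si2. ND6 had 741, 404, 258 and 392 in siSCR, 561, 158 and 319 in si1 and 245, 370.0, 163 and 303 in si2, the lowest level of the 13 genes in every library. ND1, ND2 and ND5 had their highest value in siSCR 1 too, at 10327, 31724 and 18212. COX1, the catalytic subunit of complex IV, ranged from 3691 in siSCR 3 to 12894 in siSCR 1, and ATP8 from 5062 in si2 3 to 26325 in siSCR 1.

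**Figure D1:**
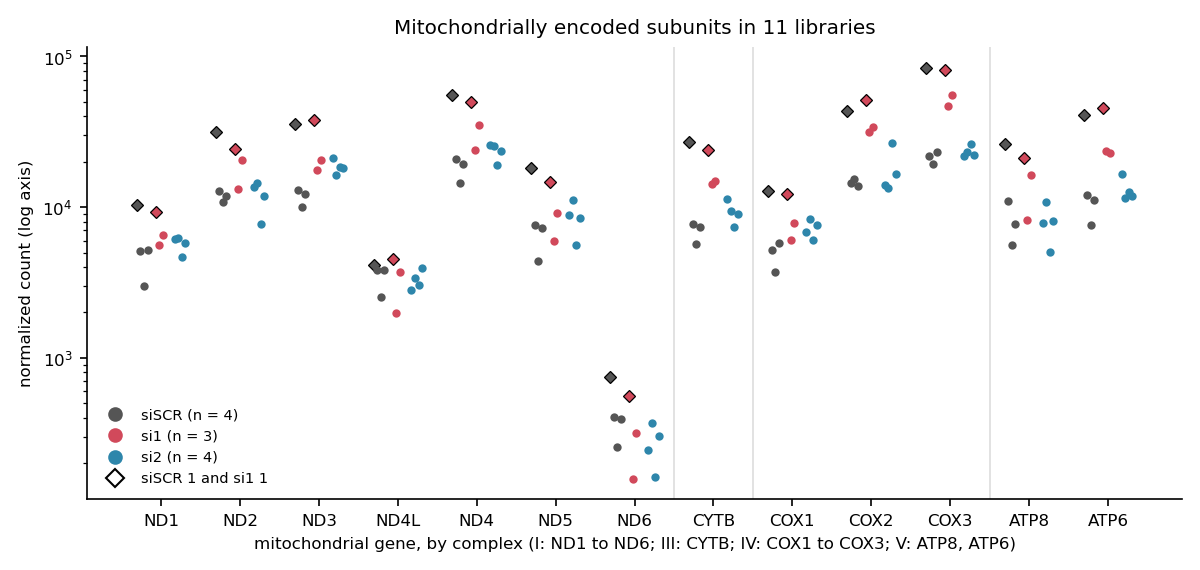
Normalized count on a log axis of the 13 mitochondrial genes in each library; each point is 1 library, coloured by group, and diamonds are siSCR 1 and si1 1. The diamonds are the highest points for all 13 genes, and for COX3 the 4 si2 libraries (21973 to 26133) lie below the 3 si1 libraries (47121 to 81456).

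As a share of all reads of the 13 genes, the make-up of the mitochondrial messengers also differed between libraries. COX3 was the largest part in every siSCR and si1 library, at 16.01% to 21.58% with siSCR and 21.62% to 23.6% with si1, and it made up 13.97% to 18.30% with si2. With si2 the largest part was ND4 in si2 1, 2 and 4, at 15.96% to 16.46%, and COX2 in si2 3, at 18.8%, while COX2 made up 8.70% to 11.2% of the rest of the si2 libraries. The COX3 share was thus higher with si1 than with siSCR or si2 without overlap, but only narrowly against siSCR. There siSCR 1 had 21.58% and si1 1 had 21.62%. ND3 made up 9.17% to 9.78% with siSCR and 10.6% to 13.5% with si2, ranges that do not overlap. COX1 made up 3.30% to 4.51% with siSCR, 3.05% to 3.26% with si1 and 4.26% to 5.37% with si2. ND5 made up 4.29% to 5.67% with siSCR and 3.00% to 3.88% with si1, again without overlap. For ND6 the shares were 0.190% to 0.304% and 0.0792% to 0.149%. Between the siRNAs the shares of ND1, ND3, ND4L, ND5 and COX1 were higher with si2 without overlap, and that of COX3 was lower. These shares have no test here, and a share can move because another gene moved.

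Set against the nuclear subunits, the mitochondrial level differed more between libraries of 1 group than between groups. For each library the mean log2 level of the nuclear genes was taken from that of the 13 mitochondrial genes. The difference was 5.52, 3.94, 3.46 and 3.88 in siSCR 1 to 4, 5.24, 3.97 and 4.46 in si1 1 to 3, and 4.15, 4.26, 3.58 and 3.98 in si2 1 to 4. Group means were 4.201 ± 0.91 (SD, n = 4) for siSCR, 4.55 ± 0.64 (SD, n = 3) for si1 and 3.99 ± 0.30 (SD, n = 4) for si2, so that the 3 groups overlapped. Between siSCR libraries the mitochondrial mean spanned 1.82 on the log2 scale and the nuclear mean 0.26, and between si1 libraries they spanned 1.05 and 0.22. In bulk RNA, fewer cells of a kind and less RNA per cell cannot be told apart. Mitochondrial genes took 88.4% of the reads of the 93 genes in siSCR 1 (95% Wilson interval 88.3% to 88.5%, counting error only), 62.6% to 68.8% in siSCR 2 to 4, 74.7% to 85.6% with si1 and 66.2% to 73.4% with si2.

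In siSCR 1 the nuclear subunits moved the other way. All 13 mitochondrial genes were above the other siSCR libraries there, with a median log2 difference of 1.57, and 56 of the 80 nuclear genes were below them, with a median of -0.26. Over 10281 genes with a mean of at least 10, siSCR 1 was below the other siSCR libraries for 36.2% and above them for 35.9%, with a median of 0.01. By complex, siSCR 1 differed from the mean of siSCR 2 to 4 by 1.27 for the mitochondrial and -0.20 for the nuclear genes of complex I. The values were 1.98 and -0.37 for complex III, 1.66 and -0.21 for complex IV, and 1.89 and -0.42 for complex V.

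In each complex siSCR 1 was the highest library and si1 1 the next. With siSCR, si1 and si2 in turn, the mitochondrial minus nuclear level was 3.87 ± 0.78, 4.05 ± 0.65 and 3.70 ± 0.35 (SD) for complex I and 3.67 ± 1.19, 4.31 ± 0.50 and 3.53 ± 0.44 (SD) for complex III. It was 3.92 ± 0.94, 4.40 ± 0.51 and 3.75 ± 0.14 (SD) for complex IV and 3.81 ± 1.20, 4.38 ± 0.74 and 3.39 ± 0.40 (SD) for complex V. In complex IV all 3 si1 libraries (3.95 to 4.96) were above all 4 si2 libraries (3.61 to 3.93). The same held for complex III, narrowly, at 4.02 to 4.89 and 2.97 to 4.00, while in complexes I and V the si1 and si2 ranges overlapped. Without siSCR 1 the siSCR means were 3.51 ± 0.31 for complex I, 3.08 ± 0.25 for complex III, 3.45 ± 0.14 for complex IV and 3.23 ± 0.42 for complex V (SD, n = 3). Over all genes, si1 1 minus siSCR 1 was -0.28, and the mean of si1 2 and 3 minus that of siSCR 2 to 4 was 0.45. Without siSCR 1, si2 minus siSCR turned from -0.21 to 0.23.

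**Figure D2:**
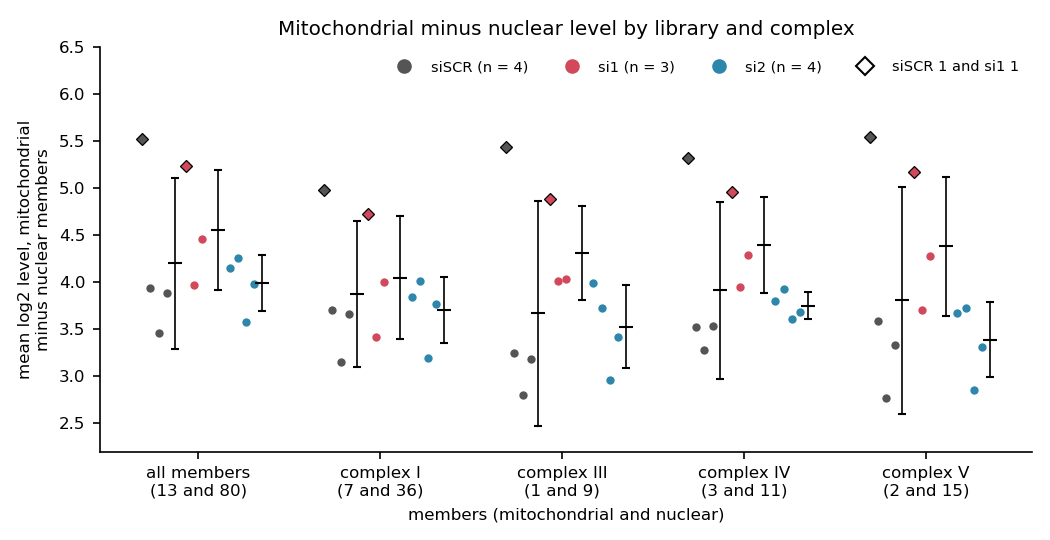
Mean log2 level of mitochondrial minus nuclear genes for all genes and for each complex with both kinds; each point is 1 library, bars are the group mean and SD, and diamonds are siSCR 1 and si1 1. The diamonds (5.52 and 5.24 over all genes) stand above all other libraries (3.46 to 4.46) in every complex.

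With si1 against siSCR, no subunit gene was called changed, and most differences were small and upward, with a smaller median without siSCR 1. Of 92 genes that passed the filter on low values, 61 had a higher mean with si1 and 31 a lower one, with a median log2 difference of 0.19 against -0.03 over all 10517 genes tested. Without siSCR 1, 58 of 92 were higher and the median was 0.12, while that of the nuclear genes fell from 0.15 to 0.05, with 47 of 79 higher. None of the 92 was called at a limma adjusted p under 0.05, where 1.72% of all genes were, and voom on the recovered reads called 3. At an unadjusted p under 0.05 there were 11 of the 92, all higher with si1, against 23.9% of all genes, a smaller share than the background. ATP5L2 failed the filter in all 3 comparisons and is described only by its normalized counts, 2.62 to 17.3 with siSCR and 4.16 to 7.51 with si1.

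Mitochondrial genes had the widest differences and errors. Their median was 0.44, from -0.45 for ND6 to 1.03 for ATP6, and 11 of 13 were higher with si1. Without siSCR 1 the median was 0.86, again with 11 of 13 higher. COX3 differed by 0.99 (SE 0.52, adjusted p = 0.278), ATP6 by 1.03 (SE 0.56, adjusted p = 0.294), COX2 by 1.00 (SE 0.43, adjusted p = 0.207) and CYTB by 0.83 (SE 0.53, adjusted p = 0.356) on the log2 scale. For these 4 genes siSCR 1 was the only siSCR library that reached into or above the si1 range. Without siSCR 1, 5 of 92 genes were called higher, where 13.5% of all genes were called: COX3 (1.48, SE 0.24, adjusted p = 0.0168), COX2 (1.39, SE 0.23, adjusted p = 0.0168), CYTB (1.33, SE 0.26, adjusted p = 0.0246), ATP6 (1.54, SE 0.33, adjusted p = 0.0313) and NDUFB2 (0.80, SE 0.18, adjusted p = 0.0358). That share, 5 of 92, is below the background. By origin, 4 of 13 mitochondrial genes were called, a share above the background, and 1 of 79 nuclear ones. These 13 genes are cut from shared precursors and had the same highest libraries, so their calls are not independent of each other. With si1 1 left out too, COX3, COX2 and CYTB were called, 3 of 93 genes where 8.17% of all genes were called. MTRNR2L1, the nuclear copy of the mitochondrial 16S ribosomal RNA gene with the most reads, had 2037 normalized counts in siSCR 1, 484 to 858 in the other siSCR libraries and 1633 to 2540.4 with si1. MTRNR2L8, the next such copy by reads, had its highest value in si1 2, at 963, and 262 to 416 with siSCR. The part of such copies in the result was not tested.

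Among nuclear subunits, those of complex IV most often lay wholly above the control. Of its 11 nuclear genes, 10 had a higher mean with si1 (median 0.32), and in 8 all 3 si1 libraries were above all 4 siSCR libraries. Without siSCR 1, 9 of 11 had a higher mean (median 0.24). Over all genes tested, 21.7% had groups that did not overlap in either direction and 10.8% lay wholly higher with si1. Of the 92 subunit genes tested, 20 lay wholly higher and 1 wholly lower. Together these were 22.8%, near the share over all genes, and none of the 13 mitochondrial genes was among them. COX6C had 892, 979, 1036 and 884 in siSCR and 1229, 1740.1 and 1561 in si1, a difference of 0.66 (SE 0.19, adjusted p = 0.104). COX6A1, an accessory subunit, had 583, 583, 665 and 592 in siSCR and 765, 1074 and 962 in si1, a difference of 0.61 (SE 0.19, adjusted p = 0.112). NDUFA4, once assigned to complex I and now to complex IV, had 915, 896, 879 and 927 in siSCR and 1111, 1428 and 1179.7 in si1, a difference of 0.45 (SE 0.17, adjusted p = 0.168). COX7C had 1797, 1847, 1613 and 1813 in siSCR and 2272, 2179 and 2202 in si1, and its difference was 0.33 (SE 0.16, adjusted p = 0.247). In each of these 4 genes the ranges of siSCR and si1 did not overlap, yet none was called. COX7A2 was the exception, with a difference of -0.01 (SE 0.17, adjusted p = 0.974), and COX4I1, the most abundant, had 0.15 (SE 0.18, adjusted p = 0.646).

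**Figure D3:**
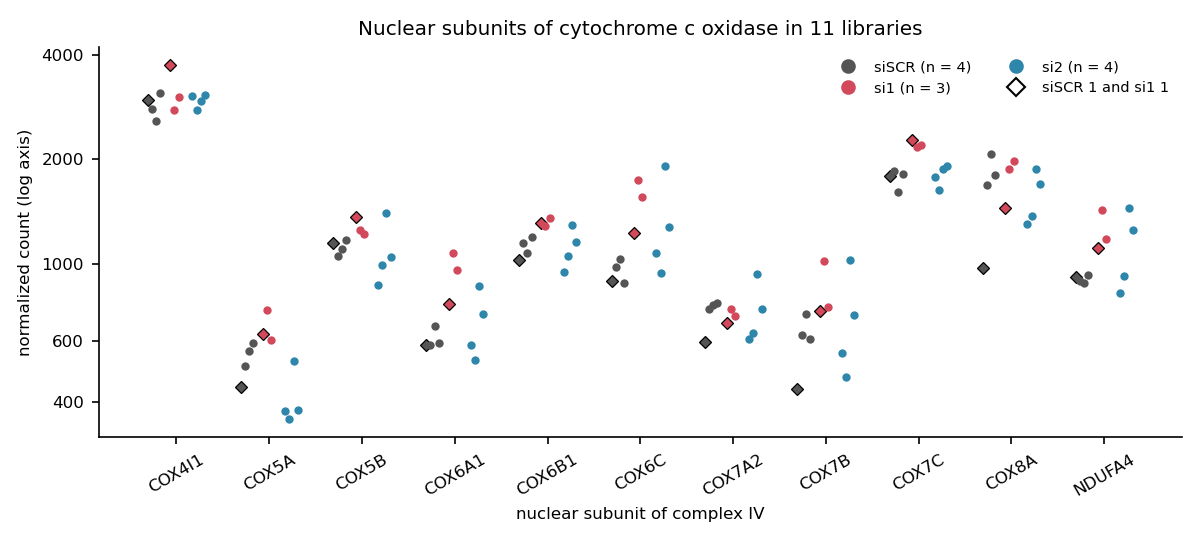
Normalized count on a log axis of the 11 nuclear subunit genes of complex IV in each library; each point is 1 library, coloured by group, and diamonds are siSCR 1 and si1 1. For COX6C the si1 libraries (1229 to 1740) lie above the siSCR libraries (884 to 1036), and the si2 libraries (944 to 1913) span both.

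The other nuclear complexes held single genes that stood out. In complex I, whose 36 nuclear genes had a median of -0.02 with 16 higher and 20 lower, NDUFB2, an accessory subunit of the membrane arm, had 552, 600.4, 504 and 542 in siSCR and 978, 1079.6 and 827 in si1. All 3 si1 libraries were above all siSCR libraries, and the difference of 0.80 (SE 0.18, adjusted p = 0.0609) was the nearest to a call among the 92 genes. NDUFB2 was called in 5 of the alternative fits and without siSCR 1. NDUFS5, another accessory subunit, differed by 0.49 (SE 0.16, adjusted p = 0.130) and did not overlap either. The 7 nuclear core subunits of complex I, which hold the flavin and iron-sulfur clusters, had a median of -0.26 with 5 lower, and the 29 accessory ones -0.01. NDUFA1, which anchors complex I in the membrane, had 464, 1039 and 627 in si1, with its high value in si1 2, against 364, 497, 535 and 397 in siSCR, a log2 difference of 0.60 (SE 0.30, adjusted p = 0.260). Of the exon bases of NDUFA1, 44.5% are also exon of a gene on the other strand, and without strand the 2 cannot be told apart.

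Complex II had a median of 0.17 over its 4 genes. SDHC differed by 0.35 (SE 0.20, adjusted p = 0.319), SDHB by 0.23 (SE 0.36, adjusted p = 0.719), SDHD by 0.10 (SE 0.33, adjusted p = 0.873) and SDHA, the catalytic flavoprotein, by -0.24 (SE 0.18, adjusted p = 0.421). In complex III the median over 9 genes was 0.19, and 0.12 without siSCR 1. UQCRC2, a core protein of the matrix side, had 389.5, 441, 459 and 387 in siSCR and 541, 777 and 655 in si1 without overlap, a difference of 0.64 (SE 0.19, adjusted p = 0.112). UQCRB (0.32) and UQCRH (0.32) did not overlap either, while UQCRC1, the partner of UQCRC2, differed by -0.23 (SE 0.17, adjusted p = 0.420).

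In complex V the median over 15 nuclear genes was 0.22, and 0.04 without siSCR 1. ATP5A1 and ATP5B encode the catalytic head, and ATP5C1, ATP5D and ATP5E the central stalk that turns with the c ring. All 5 genes had a higher mean with si1, by 0.24 to 0.45. The 3 genes of the c ring had -0.02 to 0.22. ATP5F1 of the peripheral stalk differed by 0.47 (SE 0.21, adjusted p = 0.225), ATP5D by 0.45 (SE 0.19, adjusted p = 0.204) and ATP5L, a membrane subunit, by -0.31 (SE 0.22, adjusted p = 0.411). None of these was called. Of genes that are not subunits, COX7A2L differed by 0.50 (SE 0.20, adjusted p = 0.187) and the pseudogene ATP5F1EP2 by 0.96 (SE 0.41, adjusted p = 0.203), the latter with 28.1, 91.6 and 39.1 normalized counts in si1 and therefore from few reads. ATP5S, at 50.9, 33.3 and 52.6 in si1 and 69.7, 55.6, 70.6 and 57.0 in siSCR, was the only one of the 92 genes that lay wholly lower with si1, a log2 difference of -0.48 (SE 0.22, adjusted p = 0.234).

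With si2 against siSCR, the differences of the subunit genes had a median near 0. None of 92 was called by limma or by voom on the recovered reads, where limma called 3.12% of all 10249 genes, and the median difference was 0.04 with 55 higher and 37 lower. At an unadjusted p under 0.05 there were 3 of the 92 (background 19.6%), and in 3 the groups did not overlap (background 12.6%). The mitochondrial genes had a median of -0.10, from -0.69 for ND6 to 0.25 for ND3, and the nuclear ones 0.07. By complex the nuclear medians were 0.03 for complex I, 0.08 for complex II, 0.11 for complex III, 0.03 for complex IV and 0.13 for complex V.

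NDUFS5 had 1159, 1220.0, 1375 and 1316 in siSCR and 1688, 1430.1, 1931 and 1562 in si2, a difference of 0.38 (SE 0.15, adjusted p = 0.214), with every si2 library above every siSCR library. NDUFS4 and ATP5E were the other genes without overlap, at 0.41 (SE 0.17, adjusted p = 0.217) and 0.33 (SE 0.16, adjusted p = 0.281). NDUFB2 differed by 0.42 (SE 0.17, adjusted p = 0.208), with its si2 mean between those of siSCR and si1. COX5A, a matrix-side subunit of complex IV, had 442, 509, 561 and 592 in siSCR and 377, 357, 527 and 379 in si2, a log2 difference of -0.37 (SE 0.18, adjusted p = 0.296), and ATP5G1, one of 3 genes for the c ring protein, differed by -0.35 (SE 0.22, adjusted p = 0.416). NDUFC1 had 197, 240.0, 174 and 189 in si2 and 105, 182, 184 and 135 in siSCR, a log2 difference of 0.42 (SE 0.21, adjusted p = 0.308). SDHD, at -0.37 (SE 0.20, adjusted p = 0.348), had only 9.45 to 17.6 normalized counts with si2, so a small number of reads sets its value. Without siSCR 1, 2 of 93 genes were called, where 14.4% of all genes were: ND3 rose (0.66, SE 0.16, adjusted p = 0.0273) and ATP5G1 fell (-0.57, SE 0.14, adjusted p = 0.0314). Without siSCR 1 the median of the 13 mitochondrial genes was 0.37, and that of the nuclear ones 0.01.

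Between the siRNAs the mitochondrial genes differed most, and the only calls of the 3 comparisons fell there. COX3 fell with si2 against si1 by 1.35 on the log2 scale (SE 0.22, adjusted p = 0.0169), from a mean of 61396 ± 17884 (SD, n = 3) to 23442 ± 1880.0 (SD, n = 4). ATP6 fell by 1.16 (SE 0.28, adjusted p = 0.0482), from 30721 ± 12962 (SD, n = 3) to 13137 ± 2346 (SD, n = 4). These were 2 of 92 genes, where 6.74% of all 10448 genes were called, so that the share of subunit genes called was below the background. By origin they were 2 of 13 mitochondrial genes, a share above the background, and 0 of 79 nuclear ones. The 13 genes are cut from shared precursors and had the same highest libraries. Their calls are therefore not independent of each other, which limits a comparison with the background. COX2, with a log2 difference of -1.17 (SE 0.30, adjusted p = 0.0541), and CYTB, with a log2 difference of -0.90 (SE 0.25, adjusted p = 0.0674), did not reach the threshold, although in both all si2 libraries were below all si1 libraries. Both calls were lost when all 11 libraries were fitted together, with adjusted p of 0.0793 for COX3 and 0.153 for ATP6, and when certain single libraries were left out. COX3 had an adjusted p of 0.0516, 0.0544 and 0.0551 without si2 1, si2 2 and si2 4. ATP6 kept its call only without si1 2, and without si1 1 its difference was -0.84 (adjusted p = 0.0726).

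Of the 13 mitochondrial genes, 12 had a lower mean with si2 than with si1 (median -0.58), and of 79 nuclear ones 45 were lower (median -0.06). By complex the mitochondrial medians were -0.31 for complex I, -0.90 for the single gene of complex III, -1.17 for complex IV and -1.02 for complex V. At an unadjusted p under 0.05 there were 6 mitochondrial genes (46.2%) and 5 nuclear ones (6.33%), against a background of 25.4%. In 14 of the 92 genes the groups did not overlap (background 25.0%), at 30.8% of the mitochondrial and 12.7% of the nuclear genes. ND4L, with a log2 difference of 0.02 (SE 0.29, adjusted p = 0.973), and ND5, with a log2 difference of -0.17 (SE 0.34, adjusted p = 0.795), showed the smallest of the mitochondrial differences. The difference of the mitochondrial minus nuclear level was -0.56, and without si1 1 it was -0.22.

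Among nuclear subunits COX5A came nearest to a call, with 629, 738 and 603 in si1 and 377, 357, 527 and 379 in si2 and a difference of -0.69 (SE 0.20, adjusted p = 0.0796). In complex IV, 10 of 11 nuclear genes had a lower mean with si2 (median -0.25). UQCRC2 differed by -0.66 (SE 0.23, adjusted p = 0.117) and NDUFS7, a core subunit of complex I with an iron-sulfur cluster, by -0.57 (SE 0.28, adjusted p = 0.241). Higher with si2 was ATP5L at 0.55 (SE 0.20, adjusted p = 0.133), with 1395, 1209, 1879 and 1515 in si2 and 1075, 942 and 1023 in si1. NDUFA1 differed by -0.57 (SE 0.30, adjusted p = 0.283), again with si1 2 as its high library.

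**Figure D4:**
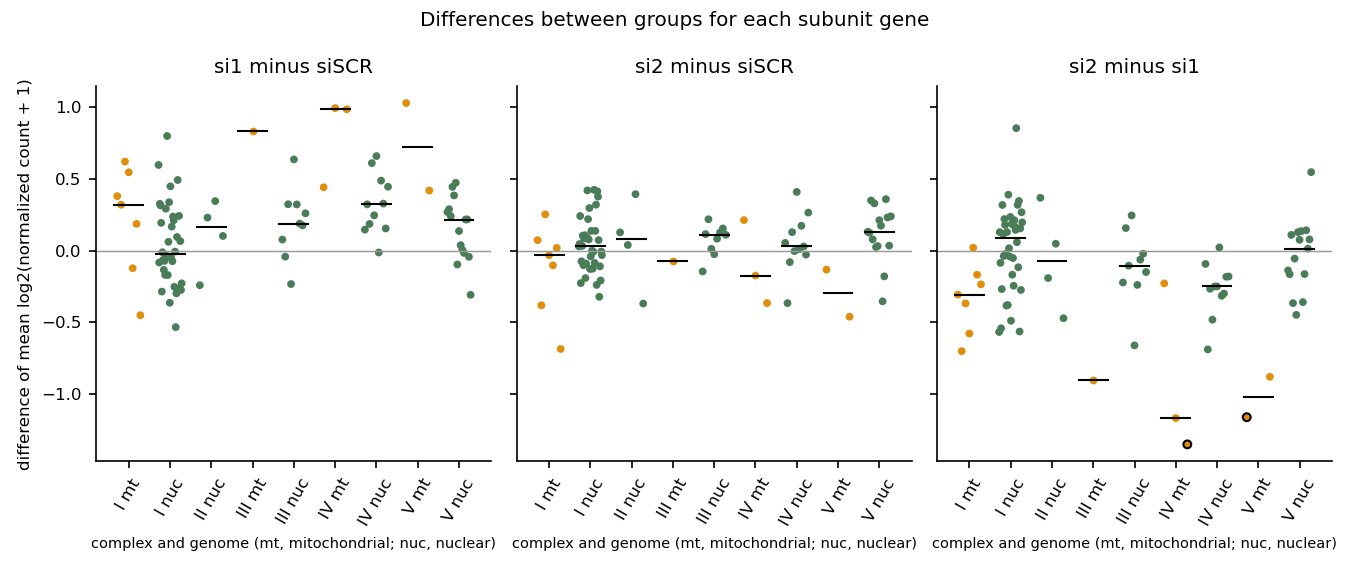
Difference of mean log2(normalized count + 1) between groups for each subunit gene, by complex and genome of origin, in the 3 comparisons; each point is 1 gene, black lines are medians, and black rims mark genes called at a limma adjusted p under 0.05. The medians of the mitochondrial genes of complexes III, IV and V are the highest with si1 against siSCR (0.83, 0.99 and 0.73) and the lowest with si2 against si1, where COX3 and ATP6 are the 2 called genes.

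Across libraries the nuclear genes varied less than the mitochondrial ones. The SD of the log2 level within groups had a median of 0.24 over 80 nuclear genes and 0.59 over 13 mitochondrial genes, and 0.34 over 10281 genes with a mean of at least 10. The highest library exceeded the lowest by a median of 1.83-fold for nuclear and 4.09-fold for mitochondrial genes. Nuclear extremes clustered in a few libraries: si2 3 held the highest value for 26 of the 80 genes, si1 2 for 21, and siSCR 1 the lowest for 25. NDUFA8 had 579 normalized counts in si2 3 and 195 to 313 in si2 1, 2 and 4, and the values in si2 3 for SDHC and UQCRFS1, the Rieske iron-sulfur protein, were 902 and 403. UQCRFS1 was lowest in siSCR 1, at 136, against 276 to 289 in siSCR 2 to 4. The library si1 2 had reads for the fewest genes of all, 11618 against 13154 to 14355 in the siSCR libraries. The part of that in the nuclear extremes was not tested.

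**Figure D5:**
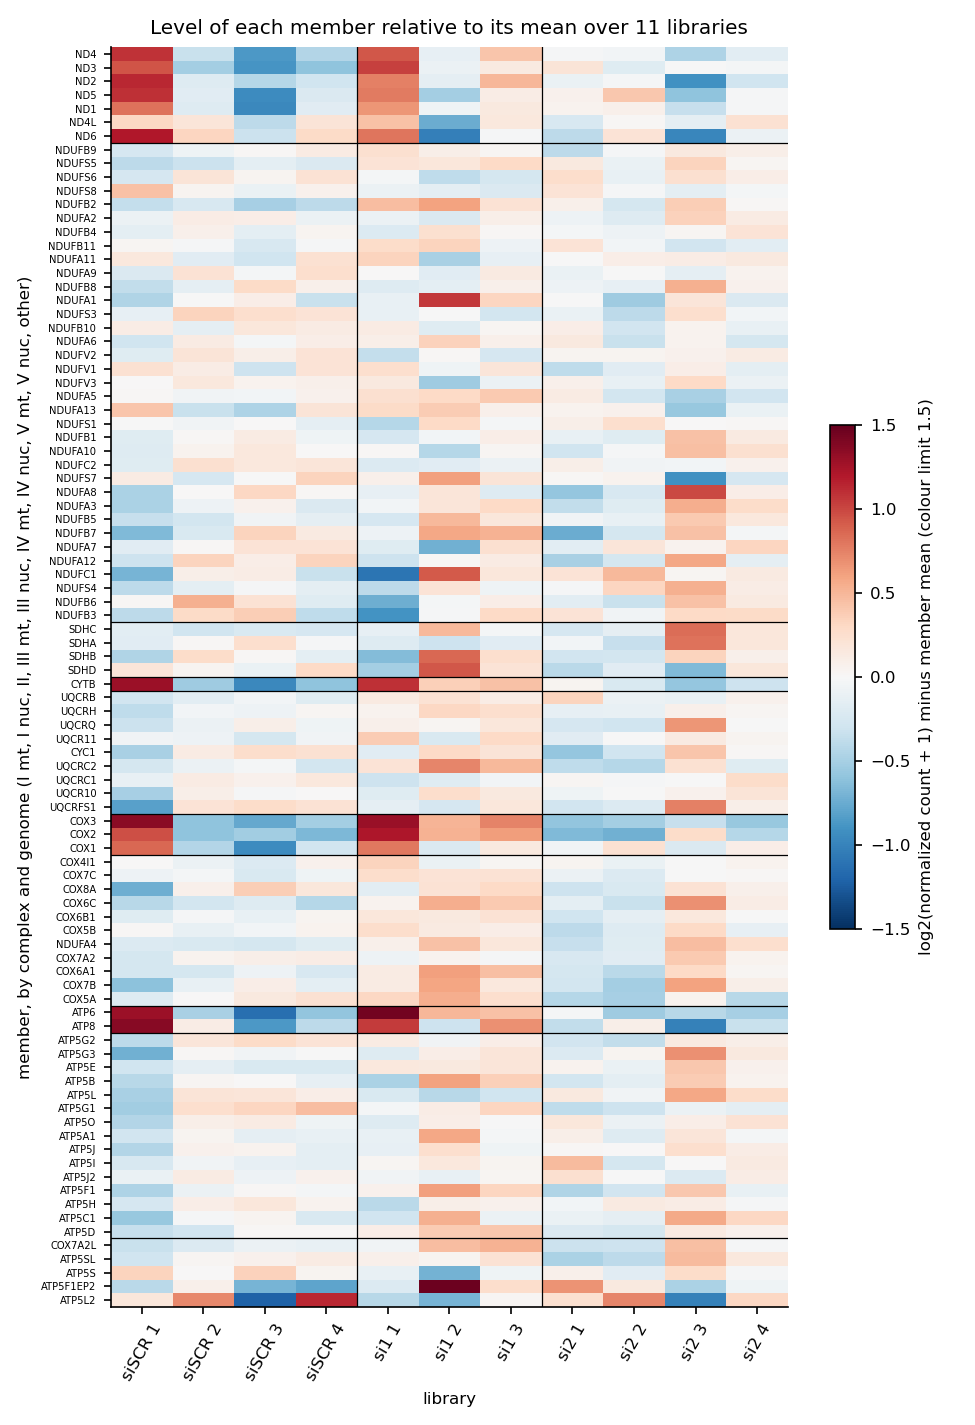
Level of 92 of the 93 genes in each library as log2(normalized count + 1) minus the gene's mean over 11 libraries, with genes ordered by complex, genome and level, horizontal lines between those sets, vertical lines between groups, and values past 1.5 drawn at the colour limit. Mitochondrial rows other than ND4L are strongly red in siSCR 1 and si1 1, while nuclear rows are mostly pale or blue in siSCR 1, with siSCR 1 the lowest library for 25 of 80 nuclear genes.

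Other genes of respiration were taken from lists that cover what moves electrons, builds the complexes and reads mitochondrial DNA. Among 13 or 14 tested electron carriers, such as cytochrome c (CYCS), none was called with either siRNA or between them; at an unadjusted p under 0.05 limma gave 1 lower with si1, 1 higher with si2, and 2 higher and 1 lower between them. None of 16 assembly factors of complex I, 9 of complexes II and III and 4 of complex V was called in any comparison. Over all genes 23.9%, 19.6% and 25.4% had an unadjusted limma p under 0.05 with si1, with si2 and between the siRNAs. At that threshold the complex I factors held 2 lower with si1, 1 higher and 4 lower with si2, and 2 higher and 3 lower between them. For complexes II and III these were 2, 1 and 2, all lower, and for complex V 1, higher between the siRNAs. The 25 complex IV factors held 2 higher and 2 lower with si1, 6 higher with si2 and 4 higher between them. Of 25 assembly factors of complex IV, 1 was called, with si2, where 3.12% of all genes were called. It was FASTKD5, which processes mitochondrial RNAs including that of COX1. FASTKD5 rose from 101 ± 15.2 (SD, n = 4) to 173 ± 22.0 (SD, n = 4), by 0.77 (SE 0.17, adjusted p = 0.0441). None of 17 genes of mitochondrial DNA replication and transcription was called, among them TFAM, which packs mitochondrial DNA (-0.41 with si1, SE 0.20, adjusted p = 0.247, and -0.21 with si2, SE 0.16, adjusted p = 0.512). None of 73 or 74 tested genes of the mitochondrial ribosome was called, with medians of -0.20 with si1, -0.09 with si2 and 0.08 between them. At an unadjusted p under 0.05, 2 ribosomal genes were higher and 10 lower with si1, 1 higher and 9 lower with si2, and 6 higher and 1 lower between them. The shares over all genes given above were larger than those in the ribosomal list in all 3 comparisons. For replication and transcription the counts were 1 and 2, 0 and 2, and 1 and 2. Mitochondrial ribosomal and transfer RNAs were not analysed here.

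Of 17 or 18 tested genes of mitochondrial RNA processing and stability, 1 was called, between the siRNAs, where 6.74% of all genes were called. GRSF1, which binds mitochondrial RNA in granules, rose with si2 against si1 from 231 ± 38.6 (SD, n = 3) to 392 ± 31.2 (SD, n = 4), by 0.77 (SE 0.19, adjusted p = 0.0465). Of 11 or 12 tested regulators of respiratory genes, YY1 and PPARGC1B were called. With si1, with si2 and between the siRNAs, 1.72%, 3.12% and 6.74% of all genes were called. At an unadjusted limma p under 0.05 the shares of all genes were 23.9%, 19.6% and 25.4%. The regulators then held 2 higher and 1 lower with si1, 3 lower with si2, and 1 higher and 2 lower between them. The processing genes held 1 higher and 3 lower with si1, 2 lower with si2, and 2 higher and 1 lower between them. YY1, which binds many promoters of respiratory genes, fell with si2 against siSCR from 758 ± 50.2 (SD, n = 4) to 433 ± 25.5 (SD, n = 4), a log2 difference of -0.80 (SE 0.14, adjusted p = 0.0177). With si1 it was 1005 ± 127 (SD, n = 3), and it fell with si2 against si1, a log2 difference of -1.20 (SE 0.17, adjusted p = 0.0101). PPARGC1B, a coactivator of such genes, rose with si1 from 25.1 ± 5.02 (SD, n = 4) to 62.8 ± 14.2 (SD, n = 3), by 1.29 (SE 0.23, adjusted p = 0.0447), and fell with si2 against si1 to 17.0 ± 6.19 (SD, n = 4), a log2 difference of -1.88 (SE 0.31, adjusted p = 0.0169). The adjusted p of GRSF1 was over 0.05 when any one library was left out, and so were those of FASTKD5 with si2 and PPARGC1B with si1, except without siSCR 1. In those fits, limma called 120 to 803 of all genes for GRSF1, 88 to 160 for FASTKD5 and 0 to 4 for PPARGC1B. PPARGC1B between the siRNAs had an adjusted p of 0.0544 without si2 2. YY1 with si2 against siSCR missed the threshold when any one library but siSCR 1 or si2 3 was left out, at 0.0524 to 0.0635. The 11 subunit genes with YY1 letters in their promoter, such as ATP5O shown above, had a median difference of 0.03 with si2 against siSCR, and the 52 without had 0.05. Between the siRNAs these medians were -0.04 and -0.05.

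The authors' deposited table for si1 holds an adjusted p under 0.05 for 1050 of 33080 genes (3.17%), among them 5 subunit genes. In the authors' deposited table these were NDUFB2 with a log2 fold change of 0.78 and an adjusted p of 0.000167, COX6C with 0.65 and 0.00504, and COX6A1 with 0.60 and 0.0122. The authors' deposited table also lists UQCRC2 with 0.62 and 0.0154 and NDUFS5 with 0.48 and 0.0156. For si2 the authors' deposited table has 617 genes under 0.05 (1.87%) and none of the 93 among them. Of the 33080 genes only 17626 had a read in some library, while the 93 were kept for their level. A share of the 33080 and a share of the 93 are therefore not like for like. All 5 subunit genes listed for si1 were also higher with si1 by limma, in which none was called.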

How the data were processed

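The deposited tables give 1 log2 value per gene and library, and the authors' adjusted p-values (p-value adjusted for multiple tests) and log2 fold changes for each siRNA. Per the submitters' processing notes, cutadapt, FastQC, STAR, HTSeq, DESeq2 and the GRCh38 build were used; their versions, the annotation and the strandedness are not given in the sources used here. Values are log2(normalized count + 1), and 100% of them came out as whole reads (within 0.01) once divided by the step of their library. From these values each pair of groups was fitted with limma 3.58.1 (R 4.3.3) on its own libraries, keeping genes that reached 10 normalized counts in at least the number of libraries of the smaller group. Benjamini-Hochberg adjustment ran over all genes tested, and a gene was called at an adjusted p under 0.05. The fitting script was tested on simulated data. Other filters, pseudocounts, scalings, tests, memberships and a replicate block were tried, and each library was left out in turn. Leaving out siSCR 1 and si1 1 together was chosen after seeing the data.

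The genes and the pathway and marker lists were chosen with earlier results of these data known. Named genes were all 13 mitochondrial ones, and per complex the nuclear ones with the highest levels and the largest differences, paralog pairs, and those called. NDUFA8, NDUFS4, NDUFS5, UQCR11, COX8A, ATP5A1, ATP5B, ATP5E, ATP5O, ATP5L2, TFAM and CYCS were named after their values were seen. Promoters came from RefSeq, and gene positions and lengths from GENCODE 29 (GRCh38). Several subunits have near-identical pseudogenes, between which reads may have been split. The values of 1 gene are not reported here, although it is part of the counts and medians.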

Additional observations from a re-analysis of the deposited data

Results flagged for a closer look

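In groups of 4 libraries, the gap of the highest or lowest library to its nearest neighbour was set against the range of the group for the named genes. In 13 of 118 such values 1 library stood apart, with a gap beyond Dixon's 95% critical value. Chance flags about 1 in 20 of values that are independent and not picked by size. Some named genes were picked by their differences, and mitochondrial genes had the same highest libraries. The count of flags can therefore not be read against that rate. Of the 13 flagged values, 10 lay in siSCR 1. There 7 mitochondrial genes were high, with normalized counts of 84406 for COX3, 55293 for ND4, 43285 for COX2, 40799 for ATP6, 35861 for ND3, 31724 for ND2 and 27092 for CYTB. In the same library 3 nuclear genes were low, with 1316 for ATP5G3, 895 for ATP5L and 136 for UQCRFS1. COX6A1 stood apart at 665 in siSCR 3. In the si2 group it was COX5A at 527 in si2 3 and UQCRC1 at 561 in si2 4.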

How the results depend on the processing

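No called result changed its direction under the alternatives run, leaving 1 library out included, while the mitochondrial minus nuclear level with si2 against siSCR, which has no test, changed sign without siSCR 1. The number of genes called with si1 was 0, and became 1 (NDUFB2) with a minimum of 50 normalized counts, with pseudocount 5 or with all 11 libraries in one fit, 4 with limma-trend, 3 with voom on the recovered reads, 3 without siSCR 1 and si1 1, and 0 to 5 with 1 library left out. The shares of all genes called in the first 6 of these fits were 7.82%, 3.94%, 10.8%, 6.77%, 5.53% and 8.17%, against 1.72%. With si2 it was 0 and became 0 to 2 with 1 library left out. Between the siRNAs it was 2, and became 1 (COX3) without a filter or with pseudocount 0.5, 1 (COX5A, with COX3 and ATP6 both lost) with all 11 libraries in one fit, 5 with a minimum of 50, 4 with pseudocount 5, 7 with limma-trend, 8 with voom, and 0 to 4 with 1 library left out. The shares of all genes in the first 7 of these fits were 1.37%, 6.39%, 7.56%, 13.1%, 8.29%, 10.2% and 11.2%, against 6.74%. Over all genes, voom called 582, 463 and 1172. The cause was not tested. With 1 library left out, the fits called 0 to 1399 of all genes with si1, 88 to 1496 with si2 and 120 to 803 between the siRNAs. The replicate block gave 0 genes in all 3 comparisons. Over all genes tested it called 0 of 10517, 175 of 10249 and 6 of 10448. Same-numbered libraries correlated at 0.40, 0.09 and 0.15 between siSCR and si1, and different-numbered ones at -0.29 to 0.12. For siSCR 1 the values were -0.14 with si1 2 and -0.23 with si1 3. Each of the other comparisons held 1 negative same-numbered pair, at -0.03 and -0.007. The numbers were not taken as a pairing, and whether same-numbered libraries shared a batch was not tested. The mitochondrial minus nuclear differences ranged from 0.01 to 0.79 with si1, from -0.46 to 0.23 with si2 and from -0.86 to -0.22 between the siRNAs when 1 library was left out. Depth limits SDHD, ATP5F1EP2 and ATP5L2 most.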
